A study of Mus musculus with 35 samples.

Results

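H3K4me3 was compared between an earlier and a later stage of oocyte-like cells grown in culture from mouse embryonic stem cells, called c13 and c34. The members were all H3K4me3 peaks on autosomes 1 to 19 in the deposited c13 and c34 lists, 30794 and 35321 peaks, which made 66115 of the 167982 peaks in all 13 lists of the study. A c13 peak was called kept when at least 1 bp of it lay in a c34 peak and lost when none did, and a c34 peak was called kept or gained by the same rule against c13. These words name sets of peaks, since no test of a difference between stages was possible.

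The study mapped H3K4me3, H3K27me3 and H3K36me3 in female germ cells by CATCH-seq, a chromatin immunoprecipitation for few cells that works on unfixed chromatin digested by micrococcal nuclease, with carrier DNA added against losses. The labels give c13 as d4c13 oocyte-like cells, with 4 H3K4me3 and 2 input libraries, and c34 as the d4c34 oocyte-like cell, with 2 of each. Both came from 1 embryonic stem cell line, H18, of genotype WT and carrying Prdm1-mVenus and Dppa3-ECFP reporters, so they are stages of a single line. Lists from animals served as reference: E18.5 oocytes, fetal oocytes from WT mice with both reporters (2 H3K4me3 libraries), and fully grown germinal vesicle (GV) oocytes of WT BDF1 mice (1 library). Each stage had 1 deposited list per mark, with no score, height, read count or replicate list. Depth is therefore unknown, no error can be given for any value, and the part of the unequal number of libraries in the results was not tested. In a peak list, fewer cells with a mark and less of it per cell cannot be told apart.

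H3K4me3 is a trimethylated lysine of histone H3 that lies at the starts of active and poised genes. Methyltransferases of the SETD1 and MLL families place it, and CXXC domains in them or their partners bind unmethylated CpG dinucleotides, so CpG islands carry the mark in most cell types. In growing mouse oocytes the mark also spreads into broad domains away from promoters, in regions without DNA methylation. H3K27me3, placed by Polycomb repressive complex 2, often shares silent developmental promoters with it, while H3K36me3 lies over transcribed gene bodies and guides DNA methylation in oocytes.

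The promoters of 8 genes are printed as examples, and their CpG counts do not follow the order of the class medians given further on. Each is the window of 300 bases, from 250 before to 50 after the gene start, printed 5′ to 3′ on the gene's strand from the RefSeq table of GRCm38.p6, with every CpG in capitals. The first 3 lay in c13 peaks and had no c34 peak within 1 kb: Nr4a1, an orphan nuclear receptor (chr15:101266596-101266895, plus strand), with 35 CpG; Fgf4, a growth factor of early embryos (chr7:144861136-144861435, plus strand), with 28; and Rec8, the cohesin subunit of meiosis (chr14:55617916-55618215, plus strand), with 18.
Nr4a1: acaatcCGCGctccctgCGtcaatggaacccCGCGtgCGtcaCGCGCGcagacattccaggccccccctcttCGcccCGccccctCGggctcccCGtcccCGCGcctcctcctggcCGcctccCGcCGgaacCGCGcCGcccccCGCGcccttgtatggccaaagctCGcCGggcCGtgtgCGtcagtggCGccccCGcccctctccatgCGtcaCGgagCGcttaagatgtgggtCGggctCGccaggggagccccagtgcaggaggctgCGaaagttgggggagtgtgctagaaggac
Fgf4: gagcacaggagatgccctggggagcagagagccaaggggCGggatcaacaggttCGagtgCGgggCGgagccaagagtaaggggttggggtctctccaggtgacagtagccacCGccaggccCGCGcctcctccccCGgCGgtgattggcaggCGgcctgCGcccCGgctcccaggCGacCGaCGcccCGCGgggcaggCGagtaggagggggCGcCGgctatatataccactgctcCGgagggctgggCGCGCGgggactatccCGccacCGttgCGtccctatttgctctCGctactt
Rec8: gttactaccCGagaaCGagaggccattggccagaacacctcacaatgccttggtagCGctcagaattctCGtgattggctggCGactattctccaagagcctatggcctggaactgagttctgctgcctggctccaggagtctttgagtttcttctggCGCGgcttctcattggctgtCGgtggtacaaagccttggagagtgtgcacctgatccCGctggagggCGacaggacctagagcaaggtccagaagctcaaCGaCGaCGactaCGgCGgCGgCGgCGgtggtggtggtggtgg

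The next 3 lay in c34 peaks and had no c13 peak within 1 kb. Btg4, an adaptor for maternal mRNA decay (chr9:51115751-51116050, plus strand), had 1 CpG. Nlrp5, a founding protein of the subcortical maternal complex of the oocyte (chr7:23385639-23385938, plus strand), had 9, and Folr2, a folate receptor (chr7:101857141-101857440, minus strand), had 3.
Btg4: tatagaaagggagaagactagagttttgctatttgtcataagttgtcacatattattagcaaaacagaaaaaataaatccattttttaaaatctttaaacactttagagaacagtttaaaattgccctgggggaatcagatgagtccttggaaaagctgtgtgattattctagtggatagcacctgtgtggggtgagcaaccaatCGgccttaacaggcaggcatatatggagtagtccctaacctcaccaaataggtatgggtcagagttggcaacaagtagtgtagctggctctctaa
Nlrp5: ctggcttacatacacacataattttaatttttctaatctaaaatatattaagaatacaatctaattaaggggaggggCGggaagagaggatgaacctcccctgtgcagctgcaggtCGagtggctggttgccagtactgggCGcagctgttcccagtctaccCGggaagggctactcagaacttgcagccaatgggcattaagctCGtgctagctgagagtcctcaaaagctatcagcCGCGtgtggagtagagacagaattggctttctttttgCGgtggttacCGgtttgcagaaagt
Folr2: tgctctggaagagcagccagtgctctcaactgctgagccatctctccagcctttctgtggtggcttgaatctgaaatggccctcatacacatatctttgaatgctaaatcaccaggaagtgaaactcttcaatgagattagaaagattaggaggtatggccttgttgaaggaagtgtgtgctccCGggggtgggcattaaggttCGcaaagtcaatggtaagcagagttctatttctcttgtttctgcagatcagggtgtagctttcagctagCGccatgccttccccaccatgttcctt

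The last pair lay in peaks of both lists: Nobox, a homeobox factor of the early oocyte (chr6:43309505-43309804, minus strand), with 13 CpG, and Gapdh, a glycolysis enzyme (chr6:125165724-125166023, minus strand), with 12. Fgf4, Rec8, Btg4 and Nlrp5 were chosen for printing after their values were seen. The rule on the largest differences also named Plch2, Smim41, C130026I21Rik and Anapc15, whose windows held 6, 8, 6 and 4 CpG and are not printed.
Nobox: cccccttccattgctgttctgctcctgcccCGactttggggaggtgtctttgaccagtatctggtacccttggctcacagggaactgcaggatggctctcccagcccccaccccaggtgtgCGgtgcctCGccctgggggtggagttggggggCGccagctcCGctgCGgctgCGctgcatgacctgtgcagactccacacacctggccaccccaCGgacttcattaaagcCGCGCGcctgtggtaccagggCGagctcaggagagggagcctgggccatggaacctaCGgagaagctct
Gapdh: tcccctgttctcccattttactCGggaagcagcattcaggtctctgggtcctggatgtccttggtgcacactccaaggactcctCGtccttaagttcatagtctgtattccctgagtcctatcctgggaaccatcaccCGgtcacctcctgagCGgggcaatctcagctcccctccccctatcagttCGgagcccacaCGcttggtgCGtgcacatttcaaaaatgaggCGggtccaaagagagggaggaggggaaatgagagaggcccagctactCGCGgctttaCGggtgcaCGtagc

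Nearly equal lengths of the autosomes were covered at both stages, 251 Mb in c13 and 253 Mb in c34, but by peaks of different form. The median peak was 4 kb wide in c13 (quartiles 2 and 8 kb) and 5 kb in c34 (3 and 9 kb). The c13 list held more of the very narrow and the very wide: 33.2% of its peaks were 1 to 2 kb wide, against 18.7% in c34, and 579 were 50 kb or wider, against 36. The widest reached 613 kb in c13 and 96 kb in c34.

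**Figure D1:**
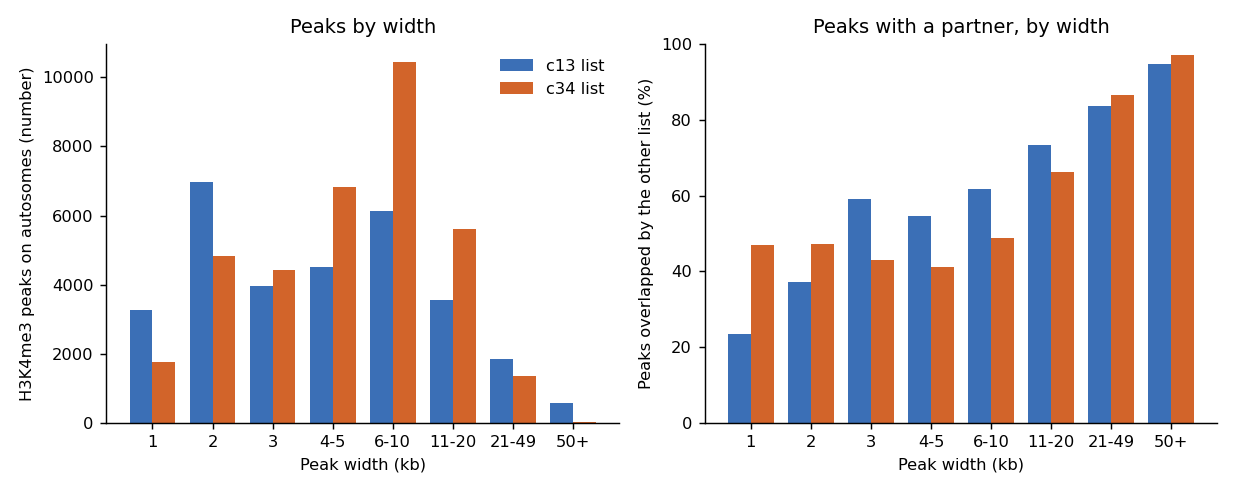
Left, number of H3K4me3 peaks on autosomes in each width class (kb) in c13 (blue) and c34 (orange). Right, share of each class (%) overlapped by at least 1 bp of a peak of the other list; it runs from 23.5% at 1 kb to 94.6% at 50 kb or more in c13, and from 41.0% at 4 to 5 kb to 97.2% in c34.

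Of the c13 peaks, 14158 (46.0%) were lost and 16636 (54.0%) kept, and of the c34 peaks 17465 (49.4%) were gained and 17856 kept. Lost peaks were the narrower, with a median of 3 kb and 48.5% of them 1 to 2 kb wide, whereas gained peaks had a median of 5 kb and 20.0% in that class. Kept peaks had a median of 6 kb in both lists. As the plot of peaks by width shows, only 23.5% of the c13 peaks of 1 kb had a partner in c34. A wide peak has more room for one, and 94.6% of the c13 peaks of 50 kb or more did. Counting only peaks of 3 kb or more in both lists, 8811 c13 peaks had no partner. That rule leaves out the 33.2% of c13 peaks that were 1 to 2 kb wide, so this count has a smaller base than 14158.

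By length the turnover was larger than by number of peaks, but the overlap rule keeps the number low. A peak counted as kept at any overlap, while length counted every base outside the other list. With 50% overlap, 18425 c13 peaks were lost and 22018 c34 peaks gained, against 14158 and 17465 by the main rule. The contrast between length and number therefore depended on the rule. The lists shared 94.9 Mb, which was 37.8% of the c13 and 37.5% of the c34 length, so that 156 Mb (62.2%) of c13 and 158 Mb (62.5%) of c34 lay outside the other list. The lengths came about differently. In c13, 57.2% of the lost length (89.5 Mb) was trimmed from peaks that were kept, and 66.8 Mb lay in peaks lost whole. In c34, 64.6% of the gained length (102 Mb) lay in peaks gained whole, and 56.0 Mb extended kept ones. The 579 widest c13 peaks held 21.3% of all lost length: 67.1% of their 49.5 Mb lay outside c34 peaks, although 548 of them had a c34 peak inside.

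The kept peaks formed 15543 regions, of which 13339 paired a single c13 peak with a single c34 peak. In 1202 regions a c13 peak was split over several c34 peaks, and in 730 several c13 peaks met in 1 c34 peak. Among the 13339 pairs, 6044 (45.3%) were wider in c34 and 5465 (41.0%) narrower. The direction followed the c13 width. Pairs that began at 1 to 2 kb went from a median of 2 kb to 4 kb, and 66.5% were wider in c34. Pairs that began at 11 to 20 kb went from 14 kb to 8 kb, with 77.2% narrower, and those above 20 kb from 28 kb to 9 kb, with 94.7% narrower. The classes were set by the c13 width itself, and without replicate lists the part of uneven measurement in this pattern was not tested.

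Position set the kept peaks apart from both other sets. A protein-coding gene start lay in or within 1 kb of 63.3% of the c13 and 61.5% of the c34 kept peaks, but of 11.5% (1623) of the lost and 4.04% (705) of the gained peaks. All 1 kb steps of the autosomes gave 3.03%, but they are narrower than most peaks, and the share within 1 kb rose with width. At 1 to 2 kb and at 11 kb or more it was 2.54% and 9.14% for gained peaks and 7.74% and 22.3% for lost peaks. Kept peaks gave 43.9% and 73.3% in c13 and 54.8% and 69.4% in c34. Over 50 kb from any such start lay 42.3% of lost peaks and 52.3% of gained peaks, against 13.5% and 13.2% of the kept ones in c13 and c34 and 54.7% of all steps. Gene bodies held 60.6% of the lost length, 66.6% of the c13 and 58.8% of the c34 kept length and 37.2% of the gained length, where 40.7% of the autosomes lie in such genes.

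**Figure D2:**
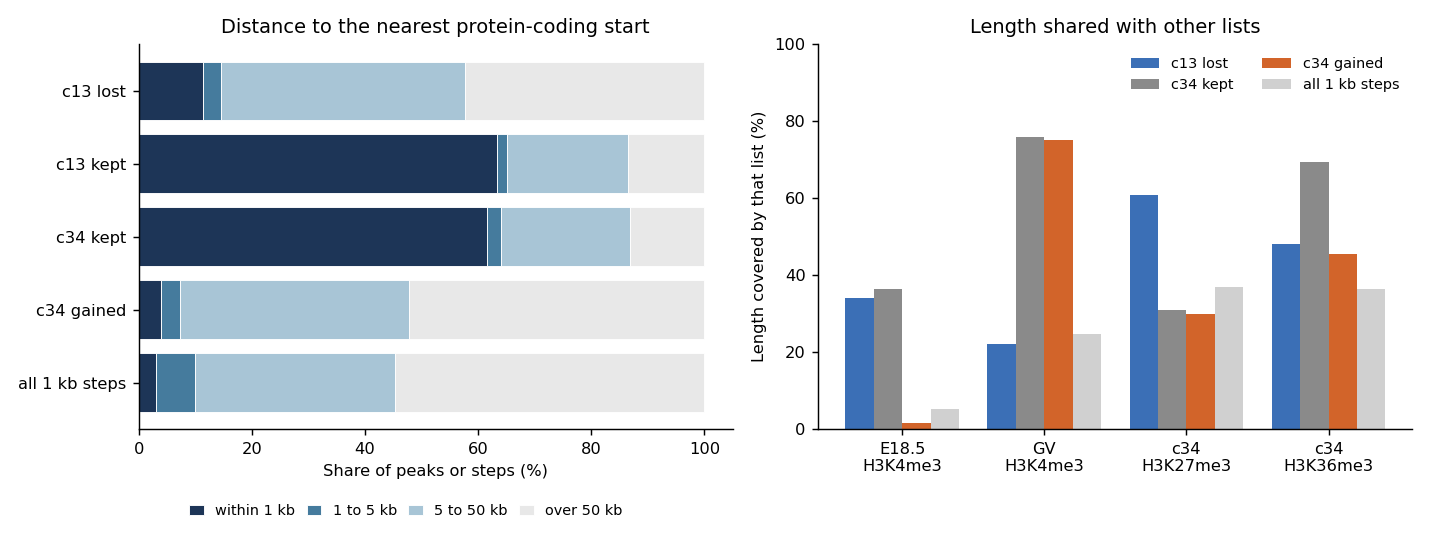
Left, share (%) of lost, kept and gained peaks by distance to the nearest protein-coding start, with all 1 kb steps of the autosomes for comparison; 63.3% of c13 kept and 4.04% of c34 gained peaks lay within 1 kb. Right, share (%) of the length of lost (blue), c34 kept (dark grey) and gained (orange) peaks covered by each other list, with all steps in light grey; GV H3K4me3 covered 75.1% of the gained and 22.2% of the lost length.

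The lists from animals covered lost and gained peaks in opposite ways. E18.5 H3K4me3 peaks overlapped 7802 (55.1%) of the lost and 537 (3.07%) of the gained peaks. GV H3K4me3 peaks overlapped 3833 (27.1%) of the lost and 13851 (79.3%) of the gained. By length, the E18.5 list held 34.1% of the lost and 1.68% of the gained sequence, where it covers 5.35% of the autosomes. The GV list held 22.2% and 75.1%, where it covers 24.9%. Kept peaks were shared as much or more with both lists. E18.5 peaks overlapped 79.4% of the c13 kept peaks and held 37.7% of their length. GV peaks overlapped 89.2% of the c34 kept peaks and held 75.9% of their length. In all, 13450 gained peaks (77.0%) were in GV and not in E18.5 oocytes, and 3478 (19.9%) were in neither. Of the lost peaks, 5819 (41.1%) were in E18.5 and not in GV oocytes, and 4506 (31.8%) were in neither. The last group was narrow, with a median of 2 kb.

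The other marks of the cultured cells also differed over these sets. In c34, H3K27me3 peaks covered 60.9% of the lost length, 29.9% of the gained and 31.1% of the kept length, against 36.9% of the autosomes. H3K36me3 peaks of c34 covered 48.0%, 45.4% and 69.4% in the same order, against 36.5%. In c13, H3K27me3 held 74.3% of the lost length and H3K36me3 82.3%, against 42.4% and 45.02% of the autosomes, but they held as much or more of the c13 kept length, 76.3% and 90.3%. Peaks gained later lay in c13 H3K27me3 over 56.9% of their length and in c13 H3K36me3 over 54.7%. The peaks of both other marks lie on a 10 kb grid, so a shared step does not place marks on the same nucleosome.

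At gene starts most calls were shared. Of 20665 protein-coding genes, 14816 (71.7%) had a c13 peak and 13649 (66.0%) a c34 peak within 1 kb of a start, 12909 (62.5%) had both, and 5109 (24.7%) had neither. A c13 peak alone lay at 1907 (9.23%), called lost below, and a c34 peak alone at 740 (3.58%), called gained. Because fewer genes were open to a gain, the shares were alike when taken over the genes that could change: 12.9% of the genes marked in c13 and 12.7% of those not marked. With only as many of the widest c34 peaks as there were c13 peaks, 3036 genes had c13 peaks alone, and with only peaks of 3 kb or more, 1624 had c34 peaks alone.

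The sequence at the starts differed between the classes. Over the 16457 genes with a listed start, the 300-base window held a median of 22 CpG (quartiles 14 and 29) at starts marked in both, 8 (4 and 16) at lost starts, 4 (2 and 6) at gained starts and 2 (1 and 4) at starts marked in neither. A promoter was called CpG-rich where its CpG count was at least 0.6 of that predicted from its C and G content. Of the 8198 CpG-rich promoters, 4.42% were lost and 8 (0.0976%) gained. Of the 8259 CpG-poor ones, 13.3% were lost and 6.60% gained. Most CpG-rich promoters were already marked in c13, and 69 were open to a gain, against 4656 CpG-poor ones. Over those, the gained shares were alike, 11.6% and 11.7%. Over the promoters marked in c13, 4.45% of the CpG-rich and 30.6% of the CpG-poor ones were lost. Among the printed windows Nr4a1, Fgf4 and Rec8, with 35, 28 and 18 CpG, lie above the upper quartile of the lost class. Btg4, with 1, lies below the lower quartile of the gained class, Folr2 inside its quartiles and Nlrp5 above them. Nobox and Gapdh, with 13 and 12, lie below the lower quartile of starts marked in both. The printed lost windows thus held more CpG than the printed kept ones, the reverse of the class medians.

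**Figure D3:**
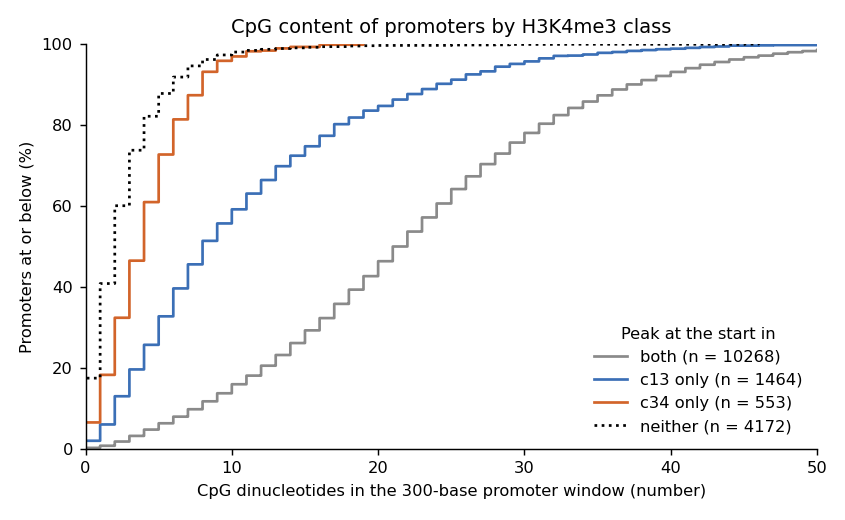
Cumulative share of promoters (%) at or below each number of CpG dinucleotides per 300-base window, for starts with peaks in both lists, in c13 only, in c34 only and in neither. The c34-only curve rises almost as early as that of unmarked starts, with medians of 4 and 2 CpG, and the c13-only curve, with a median of 8, lies between it and that of starts marked in both, with a median of 22.

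Short motifs were counted in the same windows on both strands. GGGCGG, the GC box, was in 66.8% of windows marked in both, 41.3% of lost, 72 of 553 gained and 6.18% of unmarked windows, against 47.3% of all. It contains a CpG and overlaps in meaning with the CpG count. CCGGAAG, an ETS motif, which also holds a CpG, was in 18.1%, 5.53%, 2.71% and 1.63%, against 12.3% of all. TATAAA, the TATA box, was in 6.73%, 12.2%, 16.5% and 30.4%, against 13.5%. CAGGTG, an E-box, was in 18.7%, 22.7%, 29.8% and 19.3%, against 19.6%. TAATTG, a homeodomain core, was in 4.44%, 5.60%, 10.7% and 13.6%, against 7.07%. Matches describe the letters in these windows and no binding was measured.

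Lost and gained starts also lay in different surroundings. In c34, H3K27me3 peaks held 79.8% of lost starts and 36.9% of gained ones, against 33.6% of those marked in both and 40.1% of all. In c13 they held 81.9% of lost and 65.9% of the later gained starts, against 58.1% of all. H3K36me3 peaks of c34 held 37.4% of lost and 61.4% of gained starts, against 58.7% of all. GV oocytes had H3K4me3 at 48.1% of lost genes, 87.8% of gained genes and 95.8% of those marked in both, where the share over all genes was 73.3%. E18.5 oocytes had it at 42.8%, 3.92% and 91.1% in the same order, where the share over all genes was 61.4%. Of lost starts, 15.6% still had a c34 peak within 5 kb, and 15.9% of gained starts had had a c13 peak that near. A c13 peak of 50 kb or more held 9.84% of lost starts and 9.29% of starts marked in both.

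Cell identity was read from marker genes, with the limit that a peak marks an active or poised promoter and not transcription. The germ cell markers Ddx4, Dazl, Mael and Tdrd1 and the oocyte markers Nobox, Figla, Gdf9, Zp1, Zp2, Zp3 and Ooep had peaks at both stages, and Nlrp5 at c34 only. Among 21 genes known from somatic cells of the ovary, 12 had peaks in both lists, among them Foxl2, Wt1, Tcf21, Pdgfra and Nr2f2. Of the others, 3 had peaks in c13 only, 1 in c34 only and 5 in neither, among them Fshr and Nr5a1. Of 6 blood and endothelial genes, Pecam1 and Cdh5 were marked in both, Cd34 and Kdr in c13 only, and Ptprc and Tie1 in neither. Over all genes, 62.5% were marked in both, 9.23% in c13 only, 3.58% in c34 only and 24.7% in neither. The part of other cells in the results was not tested.

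Gained starts among oocyte genes included those of the egg cytoplasm, of maternal mRNA decay and of maturation. Of 12 genes of the subcortical maternal complex and its Nlrp relatives, which form the cytoplasmic lattices and shell of the oocyte, 4 were marked in both lists (Ooep, Tle6, Khdc3 and Zbed3), 6 in c34 only and 2 in neither. The 6 were Nlrp5, Padi6, Nlrp2, Nlrp4f, Nlrp9a and Nlrp9c, each under a peak of its own on 3 chromosomes. Over all genes 3.58% were gained, and over those not marked in c13, which here were the 6 and the 2 in neither, 12.7%. All 6 had a peak in GV oocytes and none in E18.5 oocytes, and all 6 starts lay in c34 H3K36me3 and none in c34 H3K27me3. Nlrp9b fell just outside the rule with a c34 peak 1.02 kb from its start.

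In the window of 5 kb on each side of the start, 10001 bp in all, Nlrp5 (chr7:23385889-23441923) had 0 bp of H3K4me3 peaks in c13, 7889 bp in c34, 0 bp in E18.5 and 7889 bp in GV oocytes. Its c34 peak was 15 kb wide, and the nearest c13 peak lay 694 kb away. Padi6 (chr4:140727355-140742643), a protein of the cytoplasmic lattices, had 0 bp in c13, 10001 bp in c34, 0 bp in E18.5 and 8000 bp in GV oocytes. Unlike Nlrp5 it had a c13 peak of 50 kb next to it, 13.6 kb from the start. Nlrp2 had 0, 10001, 0 and 7966 bp and Nlrp9c 0, 8000, 0 and 8700 bp in the same order. In these 4 genes c13 and E18.5 were both empty and c34 and GV both covered. Over all genes with a listed start the median was 4000 bp in c13 and 3000 bp in c34.

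**Figure D4:**
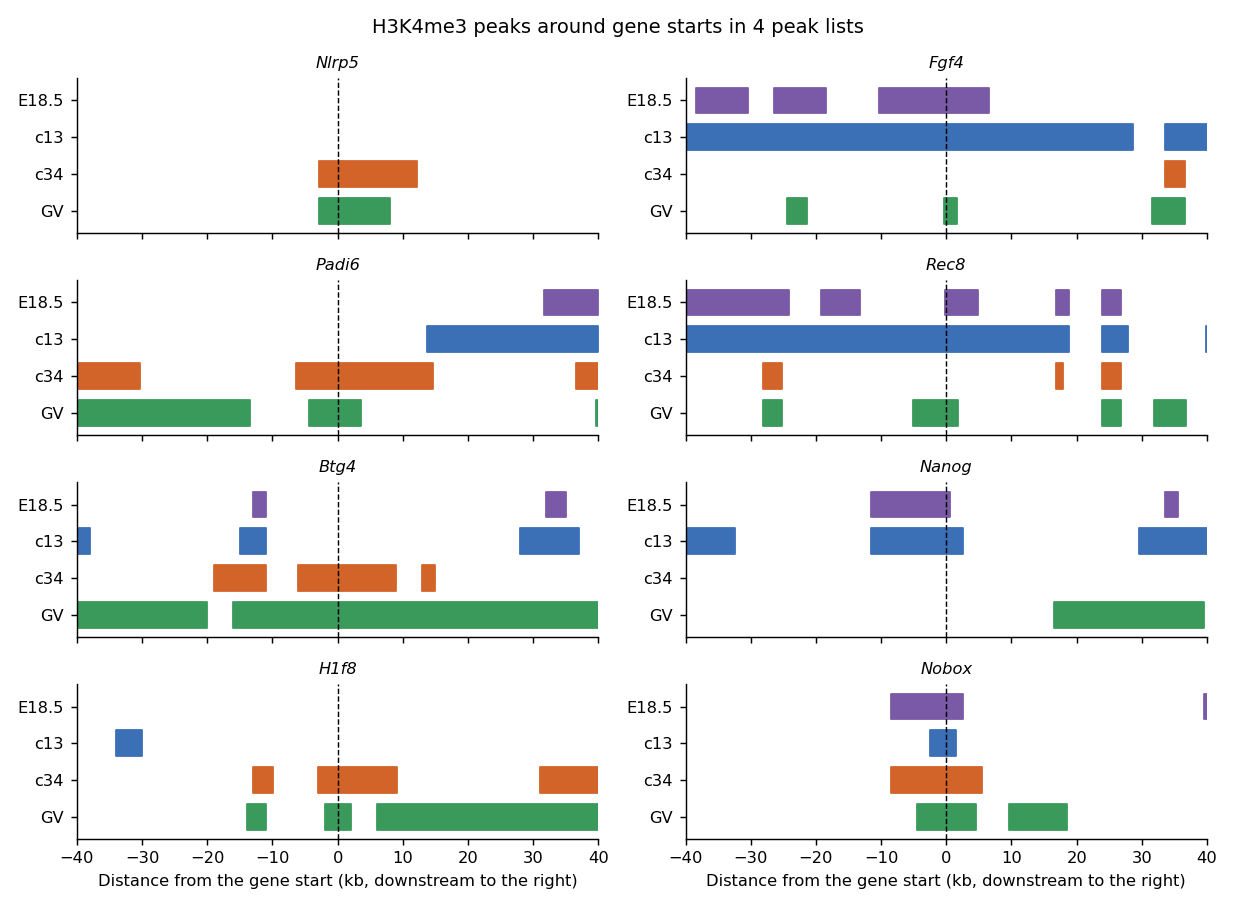
H3K4me3 peaks (bars) from 40 kb before to 40 kb after the starts (dashed lines) of 4 gained genes at the left, 3 lost genes and Nobox at the right, in the E18.5, c13, c34 and GV lists; height carries no value. Nlrp5, Padi6, Btg4 and H1f8 have no bar over the start in E18.5 or c13 and one in c34 and GV, Fgf4, Rec8 and Nanog have none over the start in c34, and Nobox has one in every list.

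Gained genes were few among those for maternal RNA and chromatin, where 7 of 8 and 4 of 6 genes were already marked in c13. Over all genes not marked in c13, 12.7% were gained. Btg4 (chr9:51102147-51119924) was the 1 gained gene of 8 that store or degrade maternal mRNA, with 0 bp in c13, 10001 bp in c34, 0 bp in E18.5 and 10001 bp in GV oocytes. Unlike the Nlrp genes, its start lay in a c34 H3K27me3 peak and in none of H3K36me3. The other 7, among them Zar1, Cpeb1 and Ybx2, were marked in both lists. At the start of H1f8 (chr6:115944931-115950242), the linker histone of the oocyte, the values were 0, 7931, 0 and 4000 bp. With Npm2, the histone chaperone that opens sperm chromatin, it made 2 gained genes of 6, of which the 4 others, such as Hira, were marked in both. Npm2 was not marked in GV oocytes by the same rule. It has no listed start and was called from either annotated end, and 1 gained gene was counted when only listed starts entered, when the start itself had to lie in a peak or when the window was 5 kb.

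Of 12 genes for meiotic arrest, maturation and fertilisation, 8 were marked in both lists, among them Mos, Gpr3 and Astl, 3 in c34 only and 1 in c13 only. Over all genes, 12.9% of those marked in c13 were lost and 12.7% of those not marked were gained. Wee2, the oocyte kinase that inhibits the maturation kinase Cdk1, had 0 bp in c13, 9138 bp in c34, 3138 bp in E18.5 and 7138 bp in GV oocytes. Kpna7, an importin of the oocyte, had 0, 10001, 0 and 6636 bp. Fbxo43, the inhibitor that holds the egg in metaphase arrest, has no listed start. The lost gene was Gpr12, a receptor that raises cyclic AMP, with 7239 bp in c13, 0 bp in c34, 3000 bp in E18.5 and 0 bp in GV oocytes. The number of gained genes here ran from 1 to 5 over 8 alternative rules, being 1 when either annotated gene end counted and 5 with peaks of 3 kb or more.

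The regulators and signals of early oocyte growth were mostly marked at both stages. Of 8 oocyte transcription factors, 7 were, with 4000 bp in c13 and 10001 bp in c34 at Nobox and 6000 and 5000 bp at Figla. Tbpl2, the TATA-binding protein of the oocyte, was the gained one, with 0 bp in c13, 3000 bp in c34, 0 bp in E18.5 and 7595 bp in GV oocytes. All 5 growth factor and gap junction genes (Gdf9, Bmp6, Fgf8, Gja4 and Kit) were marked in both. Kit, the receptor for the granulosa cell ligand, had 5014 bp in c13 and 10001 bp in c34. Among 6 zona pellucida and secreted protein genes, Zp1, Zp2 and Zp3 were marked in both. Oosp1, Oosp2 and Oosp3, neighbours on chromosome 19 under 3 peaks, were marked in c34 only, beside 12.7% gained among all genes not marked in c13. At Oosp1 the values were 0, 9051, 0 and 6051 bp in c13, c34, E18.5 and GV. At Oosp2 a c13 peak lay 1.56 kb from the start, just outside the rule, and the number gained ran from 2 to 3 over 8 alternative rules.

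Meiotic prophase genes were marked at both stages in most cases, beside 12.9% lost among all genes marked in c13. In the 5 lists of such genes only Mei1 had no c13 peak within 1 kb of a start. It alone was therefore open to a gain, and it had no c34 peak there either. All 6 genes of meiotic entry, such as Stra8 and Meioc, had peaks in both lists. Of 4 meiotic cohesin genes, Smc1b and Stag3 were marked in both and Rec8 and Rad21l in c13 only. Rec8 (chr14:55618002-55625395) had 10001 bp in c13, where its peak was 68 kb wide, 0 bp in c34, 5000 bp in E18.5 and 6835 bp in GV oocytes. Rad21l had 3000, 2000, 2000 and 4533 bp, with a c34 peak 1.47 kb from its start, so that its call turned on the 1 kb window.

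Of 8 synaptonemal complex genes, which encode the zip between paired chromosomes, 7 were marked in both lists. The lost one was Syce3, a central element protein, with 5498 bp in c13, 0 bp in c34, 5000 bp in E18.5 and 8498 bp in GV oocytes. Of 9 genes for meiotic DNA breaks, 6 were marked in both, among them Prdm9 and Hormad1, and Spo11, which cuts the DNA, and Ankrd31 in c13 only. Ankrd31 had 2000, 0, 2000 and 10001 bp. Of 14 recombination genes, 13 were marked in both, such as Dmc1 and Msh4, and Spata22 in c13 only, with 2000, 0, 2000 and 0 bp. At Dmc1, the recombinase of meiosis, c13 had 3000 bp and c34 2000 bp. Of these lost genes, Rec8, Rad21l, Syce3, Spo11 and Ankrd31 were marked in GV oocytes, and Spata22 was not. Over all genes marked in c13, 12.9% were lost, a share not exceeded by 1 of 8 synaptonemal complex and 1 of 14 recombination genes. It was exceeded by 2 of 4 cohesin genes and by 2 of 8 DNA break genes marked in c13.

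Of 18 genes of the piRNA pathway and germ granules, which silence transposons, 15 were marked in both lists, among them Ddx4, Dazl, Piwil1 and Tdrd1, and Piwil2 in neither. Piwil4, an Argonaute of fetal germ cells, and Tex101, a germ cell surface protein, were marked in c13 only. These 2 of 17 genes marked in c13 did not exceed the 12.9% lost among all genes marked in c13. Tex101 had 5951 bp in c13, 0 bp in c34, 2000 bp in E18.5 and 5951 bp in GV oocytes. Of 8 early germ cell genes, 6 were marked in both, including the reporter genes Prdm1 and Dppa3. The Prdm1 start lay in a 234 kb peak in c13 and a 96 kb peak in c34, the largest width in that list. Both stages carry the Prdm1 and Dppa3 reporters, and the part of the reporters in these widths was not tested. Nanos3, needed for survival of primordial germ cells, was lost, with 10001 bp in c13, 0 bp in c34, 5001 bp in E18.5 and 0 bp in GV oocytes. Dppa2, a chromatin factor of pluripotent and germ cells, was gained and has no listed start.

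Of 13 pluripotency genes 5 were lost, and since all 13 were marked in c13, none was open to a gain. The other 8 were marked in both lists, among them Pou5f1, Sox2 and Klf4. The lost ones were Nanog, Esrrb, Tdgf1, Fgf4 and Utf1, a share of 5 of 13 beside 12.9% of all genes marked in c13. The count was 5 in each of 8 alternative rules. The starts of all 5 lay in c34 H3K27me3 peaks and 4 of them in those of c13, and none lay in c34 H3K36me3. These 5 starts lay under 5 separate c13 peaks on 4 chromosomes.

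Fgf4 (chr7:144861386-144865245) had 10001 bp in c13, in a peak 131 kb wide, 0 bp in c34, 10001 bp in E18.5 and 2000 bp in GV oocytes. Nanog (chr6:122707489-122714633), a homeobox factor of the naive state, had 7512, 0, 5512 and 0 bp. Utf1, a chromatin protein of stem cells, had 10001, 0, 5000 and 1000 bp. Tdgf1, a co-receptor of Nodal, differed from these in having no E18.5 peak near the start and 7158 bp in GV oocytes, with 6158 bp in c13 and 0 bp in c34. Esrrb, an orphan nuclear receptor, was marked in c13 at another of its starts and had 0 bp around the listed first start in all 4 lists. Among the kept genes, Pou5f1 had 8969 bp in c13, 6000 bp in c34, 0 bp in E18.5 and 7969 bp in GV oocytes, and Sox2 had 6995 bp in both cultured stages.

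Of 29 developmental regulators, transcription factors that specify embryonic lineages, 24 were marked in both lists and 5 in c13 only, where 12.9% of all genes marked in c13 were lost. Pax7, a factor of muscle and neural crest, had 10001 bp in c13, 0 bp in c34, 33 bp in E18.5 and 0 bp in GV oocytes. Otx2, a factor of the epiblast and forebrain, had 10001, 0, 0 and 0 bp, and Lmx1a, of the dorsal neural tube, 5000, 0, 2000 and 0 bp. Gata4 and Tbx5, heart factors, have no listed start, and 3 lost genes remained without such genes. All 5 starts lay in H3K27me3 peaks at both stages. Kept members included Pax6, with 10001 bp in both lists, and En1, with 10001 bp in c13 and 3000 bp in c34.

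Imprinted genes with maternal germline methylation are controlled by regions that become methylated in growing oocytes, at the gene's own promoter or elsewhere. Of 15 such genes, 11 were marked in both lists, among them Peg3, Mest and Igf2r, and 4 in c13 only: Snrpn, Plagl1, Mcts2 and Nap1l5, beside 12.9% of all genes marked in c13. All 4 lost starts lay in c34 H3K36me3 peaks and none in c34 H3K27me3 peaks, the reverse of the pluripotency genes. Mcts2 had 7148 bp in c13, 0 bp in c34, 7148 bp in E18.5 and 0 bp in GV oocytes, and Nap1l5 and Plagl1 had 2000, 0, 2000 and 0 bp each. Zdbf2, counted as kept through another start, had 6000, 0, 5000 and 0 bp around its listed first start. Snrpn was marked in c13 at another start and had 0 bp around the listed first start in all 4 lists.

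Of 12 genes imprinted through maternal H3K27me3, 10 were marked in both lists, beside 12.9% lost among all genes marked in c13. Of the 10, Jade1 and Runx1 were marked in c34 at another start only, with 0 bp around the listed first start, against 6734 and 9927 bp in c13. Sfmbt2, a Polycomb protein, had 5451 bp in c13, 0 bp in c34, 10001 bp in E18.5 and 0 bp in GV oocytes. Slc38a4, an amino acid transporter, had 10001, 0, 9045 and 0 bp, and its c13 peak was 104 kb wide. Both starts lay in H3K27me3 peaks in c13 and c34. By these calls the chromatin machinery was mostly shared, though its peaks differed in width. All 17 histone methylation genes, such as Kmt2b and Ezh2, were marked in both lists, and 9 of 10 DNA methylation genes, such as Dnmt3a and Dnmt3l. Tet1, a DNA demethylase, was marked in c13 only, with 4000, 0, 5677 and 5677 bp. The peak nearest the start was 52 kb wide in c13 and 10 kb in c34 at Kmt2d, an H3K4 methyltransferase gene, and 4 and 23 kb at Ezh2, the H3K27 methyltransferase gene. At Dnmt1, the maintenance methyltransferase, the window held 6113 bp in c13, 10001 bp in c34, 0 bp in E18.5 and 7888 bp in GV oocytes.

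Among the ovarian somatic genes the lost ones were Amhr2, the receptor for anti-Müllerian hormone, Lhcgr, the receptor for luteinising hormone, and Upk3b, a mesothelial protein. They were 3 of 15 such genes marked in c13, beside 12.9% lost among all genes marked in c13. Amhr2 lay in a 110 kb c13 peak and had 10001 bp in c13, 0 bp in c34, 0 bp in E18.5 and 9367 bp in GV oocytes. Upk3b had 8505, 3496, 505 and 5496 bp, with a c34 peak 1505 bp away. Cyp11a1, an enzyme of steroid synthesis, was gained, with 0, 8977, 5977 and 8977 bp. Of 23 housekeeping genes, 22 were marked in both lists, and Ywhaz, which has no listed start, in c34 only.

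**Figure D5:**
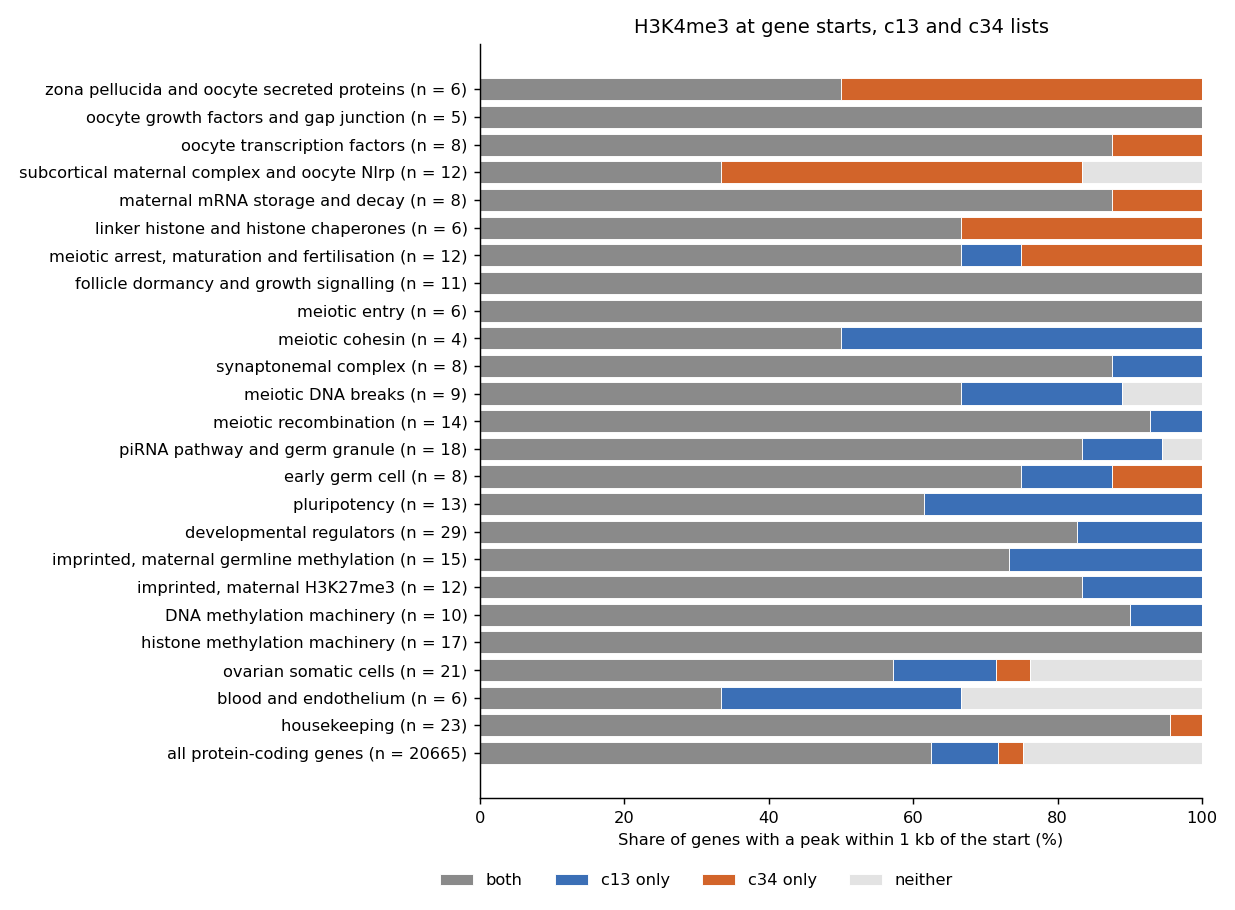
Share (%) of the genes of each list with a peak within 1 kb of a start in both lists (grey), c13 only (blue), c34 only (orange) or neither (light), with the number of genes counted in brackets and all protein-coding genes at the bottom. The c34-only share was 6 of 12 for the subcortical maternal complex and Nlrp genes, and the c13-only share 5 of 13 for pluripotency genes, beside 3.58% and 9.23% of all genes. Over the genes that could change, 12.7% of all those not marked in c13 were gained and 12.9% of those marked were lost.

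Gene families were taken by symbol and read against 9.23% of all genes lost and 3.58% gained. Over the genes that could change, the shares were 12.9% of those marked in c13 and 12.7% of those not marked. Of 49 Prame-like genes, a cluster family that includes the oocyte-expressed Oog genes, 14 were gained, each under its own peak on 3 chromosomes, 3 were marked in both and none was lost. Of 53 keratin genes, which encode filaments of epithelia, 22 were lost and 1 gained, but the 22 lay under 12 peaks on 2 chromosomes. With only listed starts, 12 keratin genes were lost. Of 57 clustered protocadherin genes, cell surface proteins of neurons, 30 were lost and 10 gained, all in neighbouring arrays with no listed starts, so that these calls rest on either gene end. The 1104 olfactory receptor genes had 19 lost and 25 gained. Ribosomal protein genes stood at the other end, with 78 of 79 cytosolic and 78 of 78 mitochondrial ones marked in both lists. Of 39 Hox genes, 37 were marked in both, and Hoxa2 and Hoxc10 were lost.

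The largest differences around single starts were ties at the ceiling: 176 genes had 10001 bp in c13 and 0 bp in c34, and 45 the reverse. Ordered by the width of the nearest peak, the c13 side began with Plch2, a phospholipase, in a 537 kb c13 peak, Nr4a1 and Smim41 in a 348 kb peak on chromosome 15, and Smim24 and Tbxa2r, the thromboxane receptor gene, in a 206 kb peak on chromosome 10. Nfatc2, a factor of T cell activation, followed and kept a c34 peak at another start. In GV oocytes Nr4a1 had 10001 bp, Nfatc2 9344 bp and Plch2 0 bp, so these genes did not share 1 pattern there.

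The c34 side began with C130026I21Rik in a 69 kb c34 peak, Anapc15, a subunit of the anaphase-promoting complex, and Folr2 in a 60 kb peak on chromosome 7, Neurog3, a factor of endocrine progenitors, in a 39 kb peak, Nr2e3, a receptor of photoreceptors, in a 38 kb peak, and Miox, a kidney enzyme, in a 35 kb peak. Folr2 (chr7:101839988-101857190) had 0 bp in c13, 10001 bp in c34, 0 bp in E18.5 and 10001 bp in GV oocytes. Neurog3 had 0 bp in both E18.5 and GV oocytes and was thus covered in c34 alone of the 4 lists. Anapc15 kept a c13 peak at another start.

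Peaks over starts marked in both lists changed in width as well. In 9899 genes with the listed start inside a peak of each list, the c34 peak was wider in 3895 (39.3%) and narrower in 4982 (50.3%), with medians of 8 kb in c13 and 7 kb in c34. Genes under the same peak were each counted here. Among the 13339 pairs of single peaks, at starts or elsewhere, 45.3% were wider in c34 and 41.0% narrower. The largest widening was at Fcho1, an endocytosis gene, from 13 kb to 89 kb. Bcan, Nes and Hapln2, a proteoglycan, an intermediate filament and a link protein gene of the nervous system, went from 7, 8 and 10 kb to a joint peak of 82 kb, and Prok2, a secreted peptide gene, from 1 kb to 60 kb. The largest narrowing was within the widest c13 peak, chr11:119708001-120321000, of which 133 kb lay in c34 peaks. Ndufaf8 and Tepsin shared 2 kb in c34, Cep131 and Slc38a10 had peaks of 4 kb and Aatk one of 5 kb.

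The widest lost peak, 123 kb on chromosome 15, held the start of Mucl2, and 102 kb on chromosome 7 lay within Kcnq1, a potassium channel gene. Others were 99 kb on chromosome 8 outside any protein-coding gene, 82 kb in Nphp4 and 76 kb at Slc37a1, which GV peaks covered in full. The widest gained peak, 69 kb on chromosome 1, held the starts of Gm38510 and C130026I21Rik, and 43 kb of it was in GV peaks. The 43 kb one, within Agap1 on chromosome 1, lay in GV peaks over 3 kb only. Those of 47 and 41 kb, on chromosomes 15 and 16, held no protein-coding start and lay in GV peaks over 44 and 36 kb. The 40 kb one, chr9:2999001-3039000, lay in E18.5 peaks over its full length and in GV peaks nowhere. It was 296 kb from the nearest protein-coding start and in no H3K27me3 or H3K36me3 peak of c13 or c34. How well reads can be placed there was not tested.

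Along the chromosomes, lost length was more concentrated than gained length, though the concentration of all c13 and all c34 peak length was not measured. The tenth of 1 Mb windows with most lost length, 247 of 2470, held 52.5% of it, and the same number ranked by gained length held 24.5% of that. These windows were gene-rich, with medians of 17 and 11 genes against 6 in all windows. The first 8 windows by lost length lay near the ends of chromosomes 4, 7 and 11. The first, chr7:144000001-145000000, held 777 kb of lost, 2 kb of gained and 76 kb of shared length and the genes Fgf3, Fgf4, Fgf15 and Ccnd1. Between chromosomes, the share of c13 peaks lost ran from 41.0% on chromosome 4 to 55.0% on chromosome 14, and of c34 peaks gained from 35.5% on chromosome 11 to 59.9% on chromosome 1. By length, the c13 share lost ran from 53.7% on chromosome 3 to 67.4% on chromosome 16. Lost and gained peaks were found on every autosome.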

How the data were processed

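The deposited files held peak positions, in an other unit than counts, with a chromosome, a start and an end per the file headers and no score. Starts counted from 0 and H3K4me3 peaks lay on a 1 kb grid, with at least 4 kb between peaks of a list. Per the submitters' processing notes, the tools included MACS2 2.1.1, SICER 0.0.41, Bowtie2 2.3.4.1, cutadapt 1.9.1, Trim Galore 0.4.1, Picard 2.18.23, SAMtools 1.7, deepTools 3.5.0 and bedtools 2.29.2. The notes assign no roles. The caller, its threshold, any pooling and any use of input for these lists are not given in sources used here, so list length can reflect depth or threshold.

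Overlaps were computed on coordinates counted from 0, and positions in the text count from 1. Python 3.11.15 was used with numpy 2.4.6 and pandas 2.3.3. The overlap steps were tested on simulated data, with 0 errors in 20 pairs of lists. Gene names came from the RefSeq table of GRCm38.p6, which gives no strand. A gene start was taken from the RefSeq promoter table where listed, for 16457 genes, and either annotated end was used for the other 4208. A gene with several listed starts counted as marked when any of them was, and window lengths refer to the listed first start. Of 286 entries in 24 lists, 281 were counted, 2 by an older symbol, and 5 lie off autosomes 1 to 19.

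Genes were named by rule: list members marked at a single stage and up to 4 marked at both, for each direction the 6 genes that differed most in peak length within 5 kb of the start, the genes of the 5 widest lost and gained peaks, and the 5 whose peaks widened or narrowed most. Other genes named, including further kept members, were chosen after their values were seen. Members, lists and rules were chosen with earlier results of these data known. Some list members are not reported here. Input libraries were not used here.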

Additional observations from a re-analysis of the deposited data

Results flagged for a closer look

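H3K4me3 peaks also lay on the sex chromosomes, which the comparison of autosomes left out, and they are listed here for that reason alone, since any peak there exceeds a count of 0. Chromosome X held 978 peaks in c13 and 1148 in c34. Of the c13 peaks there 456 (46.6%) were lost, and of the c34 peaks 636 (55.4%) were gained, beside 46.0% and 49.4% on the autosomes. Chromosome Y held 7 c13 peaks, of which 4 were lost, and 3 c34 peaks.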

How the results depend on the processing

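No value has a replicate error, and leaving out replicates was not possible because each stage has 1 list. No paired analysis was possible because the columns carry no replicate numbers. The balance of losses and gains depended on the rule. With as many of the widest c34 peaks as c13 peaks, 15971 peaks were lost and 15108 gained, against 14158 and 17465, and with 50% overlap 18425 and 22018, so that lost peaks outnumbered kept c13 peaks under both. With peaks of 3 kb or more, which leaves out 33.2% of c13 and 18.7% of c34 peaks, lost peaks numbered 8811 and starts in c34 only 1624. The lost share of c13 length was 61.0% with gaps of up to 5 kb merged, 63.6% with as many of the widest c34 peaks as c13 peaks, 63.3% with peaks of 3 kb or more, 61.3% without peaks of 50 kb or more and 61.5% without chromosomes 4, 7 and 11. That setting, the use of listed starts alone and the counts of lists under other rules were chosen after seeing the data. The gained share of c34 length was 62.8% with X, 61.2%, 62.8%, 64.5%, 68.9% and 64.3% in the order of the lost shares. Starts in c13 only numbered 3036 with the equal number of widest peaks. With all 47042 annotated genes in place of the 20665 protein-coding ones, starts in c13 only numbered 4714 and in c34 only 3281. The remaining alternatives moved these counts by less than 1.5 times. Depth limits what a missing peak shows.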

Other observations

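Starts of long non-coding RNA genes, which entered no comparison above, turned over more than those of protein-coding genes as shares of all genes of each kind. Of 9291 on the autosomes, 2244 were marked in both lists, 1246 (13.4%) in c13 only and 930 (10.0%) in c34 only, beside 9.23% and 3.58% of protein-coding genes. More of them were open to a gain, since 4871 were marked in neither list, against 5109 of 20665 protein-coding genes. The gained shares over all genes therefore cannot be compared directly. The gains were thus closer in number to the losses. Of 362 solute carrier genes, which encode membrane transporters, 45 were marked in c13 only and 19 in c34 only, and of 388 genes with a Zfp symbol, zinc finger proteins, 31 and 5. Of 42 beta-defensin genes, small antimicrobial peptides, 5 were marked in c13 only, 2 in c34 only and 35 in neither.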
